A study of Mus musculus with 4 samples.

Results

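The nuclear lamina and the LINC complex hold the nucleus of a heart muscle cell in shape and tie it to the cytoskeleton. The lamina is a mesh of A-type and B-type lamins beneath the inner nuclear membrane, which membrane proteins fasten to chromatin. The LINC complex spans both membranes of the nuclear envelope, with SUN proteins in the inner membrane and nesprins in the outer membrane, so that force from sarcomeres and microtubules can reach the lamina. Mutations in *LMNA* are a well-known cause of dilated cardiomyopathy with conduction disease. The genes were examined by name, and were the nesprins *Syne1*, *Syne2* and *Syne3*, the SUN genes *Sun1* and *Sun2*, the lamins *Lmna*, *Lmnb1* and *Lmnb2*, and the lamina-binding membrane proteins *Lbr* and *Tmpo*. They are 10 of the 24454 genes in the count table, and all 10 passed the filter on low counts that left 14266 genes for testing.

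RNA-seq was performed on mouse hearts at postnatal day 7 (P7), with 2 Ctrl libraries (WH7 and WH8) and 2 miR-128OE libraries (WH9 and WH10). Ctrl mice carried the miR-128TetRE knock-in at the Rosa26 locus without an activator. The miR-128OE mice carried the same allele together with α-MHC-tTA, a doxycycline-repressible activator under the α-myosin heavy chain promoter, so the microRNA was overexpressed in cardiomyocytes (CMs) when doxycycline was absent. The main text of the paper gives no doxycycline schedule for these P7 hearts. The α-MHC-tTA transgene was present in miR-128OE mice only, and its own effect and that of miR-128 cannot be told apart here. The libraries were made from whole heart tissue and the labels do not say whether they came from separate animals, so p-values measure only the spread between these libraries, which may be technical.

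The comparison asks which of these genes differed between miR-128OE and Ctrl hearts. *Lmna* rose 1.59-fold, the nesprin *Syne2* fell to 0.546 of its Ctrl level, and *Tmpo* fell to 0.742 of its Ctrl level. The other 7 genes did not pass the test. The test was the quasi-likelihood test of edgeR on raw counts. Its p-values were adjusted over all genes tested (Benjamini-Hochberg), and a gene with an adjusted p under 0.05 is called higher or lower. SE is the standard error of a log2 fold change. Every adjusted p of a gene below comes from this test unless DESeq2 is named. Of all genes tested, 16.5% were higher and 15% were lower in miR-128OE hearts by this rule, so 1 higher and 2 lower genes among 10 is a share near that of the whole table. The median log2 fold change was −0.21 for the 10 genes and −0.01 for all genes tested. Both miR-128OE libraries lay above both Ctrl libraries for 1 gene and below both for 5 genes, against 33.7% and 34.4% of all genes tested, and the libraries overlapped for the other 4.

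Sequences that pair with the seed of miR-128 are shown first, because the microRNA was the intended difference between the groups. The α-MHC-tTA transgene and sex differed between them as well. The mature strand is printed from the RefSeq table of GRCm38.p6, with bases 2 to 8, the seed, in capitals.
miR-128-3p: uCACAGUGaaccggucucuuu
A seed match was either CACTGTG, which pairs with bases 2 to 8, or ACTGTGA, which pairs with bases 2 to 7 and has an A opposite the first base, and only the sense strand of the longest 3′UTR annotated for a gene was searched (GENCODE M21, GRCm38). The 2 forms overlap where the first is followed by an A. In all, 5 matches were found, in 4 of the 10 genes, and they are printed 5′ to 3′ on the gene's strand with the match in capitals.
*Syne1*: agggtaataatcttcgACTGTGAcacta
*Syne2*: tctggaagagccacaCACTGTGgaaaac
*Syne3*, first: aatgcccatgactatgACTGTGAccgtg
*Syne3*, second: ttttaacgacaatgaCACTGTGgattgc
*Sun2*: taggacagtgcttagCACTGTGcagctg
The matches lie at chr12:76110325-76110331 on the plus strand for *Syne2*, and on the minus strand at chr12:104931447-104931453 and chr12:104930029-104930035 for *Syne3*, at chr15:79725052-79725058 for *Sun2* and at chr10:5338173-5338179 for *Syne1*. The *Syne1* match is in the last exon of a short transcript that ends inside the gene. *Sun1* had 0 matches in its longest 3′UTR and 1 in another annotated 3′UTR. *Lmna*, *Lmnb1*, *Lmnb2*, *Lbr* and *Tmpo* had 0 in any annotated 3′UTR. A match was present in 33.2% of the 13498 tested genes with a 3′UTR (4481 genes). Of the 4 genes with a match in the longest 3′UTR, *Syne2* was called lower and *Syne1*, *Syne3* and *Sun2* were not called, while *Tmpo* was called lower with no match. A match is a stretch of letters and binding was not measured. The mature microRNA was not measured in these libraries either. The counts on its precursor genes were 0 in every library for *Mir128-1* and, for *Mir128-2*, 0 and 0 in WH7 and WH8 and 2 and 10 in WH9 and WH10, which is too few to check the overexpression.

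Library totals ranged from 8096870 to 14359838 counts, with WH8 the shallowest, and no member had fewer than 38 counts in a library. At that depth counting error is small for all members other than *Syne3*. Both Ctrl libraries had high *Xist* (14543 and 11339 counts, against 94 and 132) and both miR-128OE libraries had high *Ddx3y* (1442 and 1768 counts, against 13 and 7), so sex and condition coincide and cannot be told apart. All 10 members are autosomal. The marker counts that follow are to be read against the 16.5% higher and 15% lower of all genes tested. Of 8 CM markers, 3 were higher and 2 were lower. The higher were *Actn2* (log2 fold change 0.76), *Myh6* (0.33) and *Pln* (0.59), and the lower were *Ryr2* (−0.40) and *Ttn* (−0.34). *Tnnt2* (0.12), *Tnni3* (0.22) and *Myl2* (0.25) were not called. The summed normalized counts of the 8 were 522978 and 562905 in Ctrl and 629563 and 620524 in miR-128OE hearts. Of 8 fibroblast markers, 1 was higher and 0 were lower, and their sum ranged from 76106 to 117142 in Ctrl and from 103176 to 111803 in miR-128OE hearts. Endothelial markers had 2 higher and 2 lower of 8, smooth muscle and pericyte markers 3 higher and 1 lower of 8, and macrophage and neutrophil markers 0 called of 8 and 6 tested. Of 3 erythroid markers tested, 1 was higher, and the 4 globin genes on the list, *Hba-a1*, *Hba-a2*, *Hbb-bs* and *Hbb-bt*, were at 0 counts in every library. Of 10 markers of proliferating cells, 0 were higher and 7 were lower, with sums of 7697 and 9423 in Ctrl and 5586 and 5526 in miR-128OE hearts and a median log2 fold change of −0.54. The part of these cell types in the results below was not tested. In whole tissue, fewer cells of a type and less RNA per cell cannot be told apart.

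**Figure D1:**
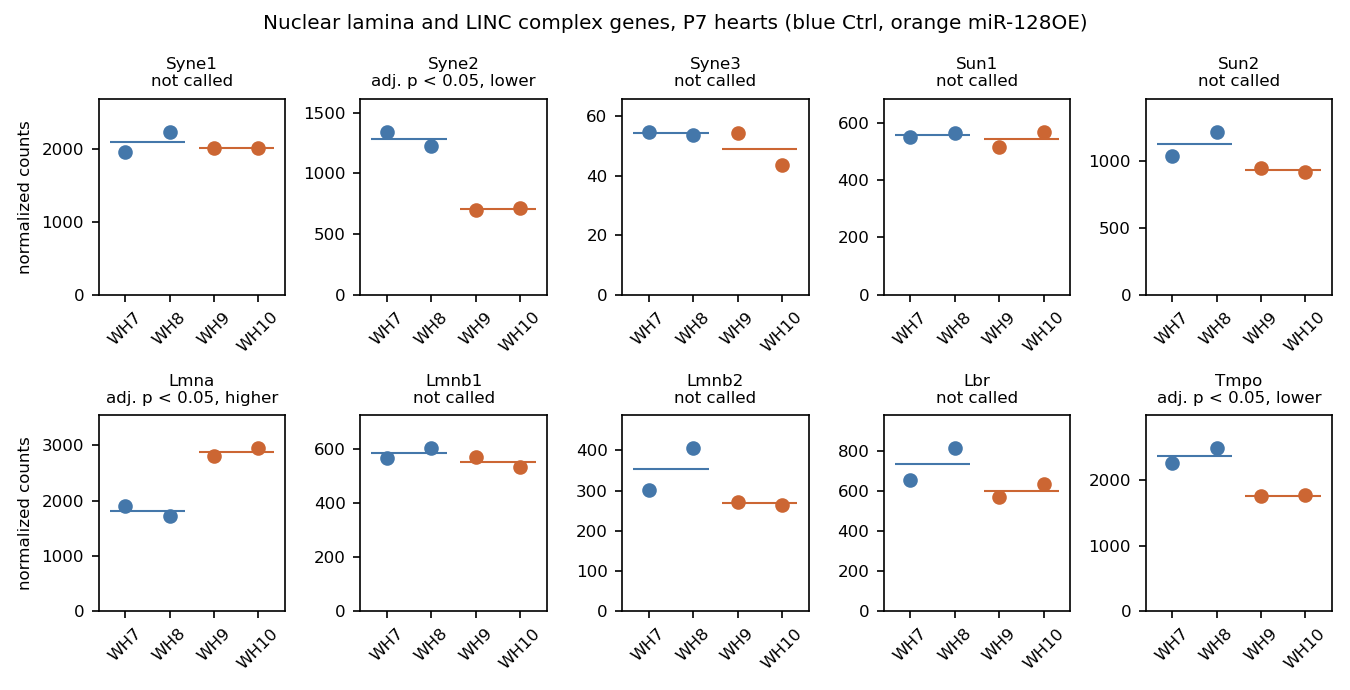
Normalized read counts of the 10 genes (vertical axes, each from 0) in each library (horizontal axes), with Ctrl in blue, miR-128OE in orange and a line at each group mean (n = 2). *Lmna* is higher in WH9 and WH10 than in either Ctrl library, *Syne2*, *Sun2*, *Lmnb2*, *Lbr* and *Tmpo* are lower, and the other 4 genes overlap.

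Nesprins are the outer membrane arm of the LINC complex, and the 3 genes behaved unequally. *Syne2* encodes nesprin-2, a giant spectrin-repeat protein whose longest form binds actin (chromosome 12 of GRCm38, 75818134 to 76110926, plus strand). It had 1345 and 1224 normalized counts in WH7 and WH8 and 694 and 712 in WH9 and WH10. Both miR-128OE libraries were far below both Ctrl libraries, by more than the spread within either pair. The group means were 1285 ± 85.7 and 703 ± 12.4 (SD, n = 2 each), and the log2 fold change was −0.87 (SE 0.09, 95% interval −1.06 to −0.68, adjusted p = 0.00017 from edgeR).

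*Syne1* encodes nesprin-1, the other giant nesprin, which in striated muscle is also made as short forms (chromosome 10, 5020917 to 5551482, minus strand). It had 1959 and 2237 normalized counts in Ctrl and 2012 and 2015 in miR-128OE hearts. The miR-128OE values lay between the Ctrl values. The log2 fold change was −0.06 (SE 0.09, 95% interval −0.25 to 0.14, adjusted p = 0.647). Gene counts pool all forms of a nesprin, so a shift between giant and short transcripts would not be seen.

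*Syne3* encodes nesprin-3, which connects the nucleus to intermediate filaments through plectin (chromosome 12, 104929933 to 105009809, minus strand). It was the least abundant member, with 60 and 38 raw counts in Ctrl and 55 and 52 in miR-128OE hearts. After normalization these were 54.3 ± 0.821 and 49.1 ± 7.58 (SD, n = 2 each), and the groups overlapped. The log2 fold change was −0.15 with a wide 95% interval of −0.74 to 0.43 (adjusted p = 0.690). A difference of any size inside that interval remains possible at this depth.

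The ratio of *Syne1* to *Syne2* counts needs no scaling between libraries. It was 1.46 and 1.83 in Ctrl and 2.90 and 2.83 in miR-128OE hearts, a 1.76-fold difference. The groups did not overlap, and an exact two-sided permutation test gave p = 0.333, the smallest that 2 against 2 libraries allow and the value for each of the 6 ratios examined, also after adjustment.

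Both giant nesprins have very long transcripts (27908 nt for *Syne1* and 21704 nt for *Syne2*), and long transcripts as a class were lower in miR-128OE libraries. Of 335 tested genes with a longest transcript over 10000 nt, 106 were lower and 23 were higher, with a median log2 fold change of −0.20 against −0.01 for the others. A fit with an offset for GC content and transcript length moved *Syne2* to −0.63 (adjusted p = 0.00143 from edgeR) and turned *Syne1* to 0.22 (adjusted p = 0.0607). The offset takes the longest annotated transcript as the length, although short forms of *Syne1* are counted too, so its *Syne1* value rests on that choice. With this offset, 13.7% of genes were called lower and 16.4% higher, and the members called lower were still *Syne2* and *Tmpo*. What lowers long transcripts in these libraries was not tested.

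**Figure D2:**
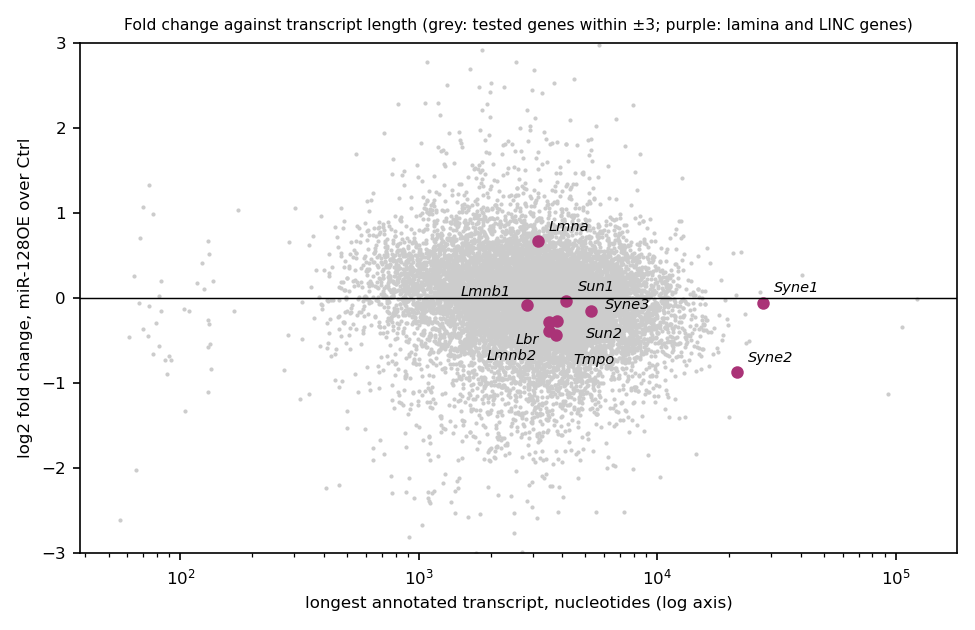
Log2 fold change of miR-128OE over Ctrl (vertical axis) against the longest annotated transcript in nucleotides (horizontal log axis) for the tested genes within the plotted range in grey and the 10 members in purple. *Syne1* and *Syne2* stand far to the right of the other 8 members, with log2 fold changes of −0.06 and −0.87 at similar annotated lengths. Short forms of *Syne1* are counted too, so its plotted length need not be that of the transcripts counted.

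SUN proteins are the inner membrane arm, reaching the lamina on one side and the KASH tails of nesprins on the other. *Sun1* (chromosome 5, 139200637 to 139249840) had 551 and 565 normalized counts in Ctrl and 518 and 570 in miR-128OE hearts, and the groups overlapped. Its log2 fold change was −0.04 (95% interval −0.25 to 0.18, adjusted p = 0.810), and 0.01 with the GC and length offset. *Sun2* (chromosome 15, 79724070 to 79742536) had 1038 and 1223 in Ctrl and 949 and 917 in miR-128OE hearts. Both miR-128OE values were below both Ctrl values, but the gap to WH7 was smaller than the difference between the Ctrl libraries. The log2 fold change of *Sun2* was −0.27 (SE 0.10, 95% interval −0.49 to −0.06, adjusted p = 0.0566), just outside the threshold. It passed in a fit without WH7 (−0.39, adjusted p = 0.00331) and with total-count scaling (−0.37, adjusted p = 0.0159), whereas it was −0.15 without WH8 (adjusted p = 0.199), −0.29 without WH9 (adjusted p = 0.226) and −0.23 without WH10 (adjusted p = 0.294). The ratio of *Sun1* to *Sun2* counts was 0.531 and 0.462 in Ctrl and 0.545 and 0.622 in miR-128OE hearts, a difference of 0.23 on the log2 scale.

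The lamins divide by type. *Lmna* encodes lamins A and C, the A-type lamins of differentiated cells, from 1 gene by alternative splicing (chromosome 3, 88480147 to 88509956). It had 1898 and 1723 normalized counts in Ctrl and 2810 and 2949 in miR-128OE hearts. The gap between the groups was several times the difference within either pair. The means were 1811 ± 124 and 2879 ± 98.3 (SD, n = 2 each), with a log2 fold change of 0.67 (SE 0.08, 95% interval 0.48 to 0.85, adjusted p = 0.00052 from edgeR). Gene counts do not separate lamin A from lamin C.

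*Lmnb1* encodes lamin B1, a farnesylated lamin that stays with the membrane (chromosome 18, 56707813 to 56753424). It had 567 and 605 normalized counts in Ctrl and 572 and 536 in miR-128OE hearts, and the libraries overlapped. The means were 586 ± 26.8 and 554 ± 25.8 (SD, n = 2 each). Its log2 fold change was −0.08 (95% interval −0.29 to 0.13, adjusted p = 0.555). *Lmnb2*, for lamin B2 (chromosome 10, 80901203 to 80918245), had 302 and 406 normalized counts in Ctrl and 272 and 265 in miR-128OE hearts. Both miR-128OE values were below both Ctrl values, with the higher Ctrl value in the shallowest library, WH8. The log2 fold change was −0.38 (SE 0.15, 95% interval −0.72 to −0.05, adjusted p = 0.0782), −0.59 without WH7 (adjusted p = 0.00286) and −0.16 without WH8 (adjusted p = 0.353), so the size of this difference rests on the Ctrl library kept.

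Set against the B-type lamins in the same library, *Lmna* was higher in both miR-128OE libraries. The ratio of *Lmna* counts to summed *Lmnb1* and *Lmnb2* counts was 2.19 and 1.70 in WH7 and WH8 and 3.33 and 3.68 in WH9 and WH10. This was a difference of 0.86 on the log2 scale, or 1.81-fold, and every miR-128OE value was above every Ctrl value. The exact two-sided permutation p was 0.333, the smallest possible with these libraries, so the p cannot pass a threshold of 0.05. The difference was 0.75 against *Lmnb1* alone, 1.05 against *Lmnb2* alone and 0.83 with counts per kilobase of exon, and it ranged from 0.68 to 1.04 when each library was left out.

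As a share of all lamin counts, *Lmna* took 68.6% in WH7 (95% Wilson interval 66.9 to 70.2) and 63.0% in WH8 (60.9 to 65.2). It took 76.9% in WH9 (75.5 to 78.2) and 78.6% in WH10 (77.4 to 79.8). The 2 Ctrl intervals do not meet each other, and neither meets a miR-128OE interval. These intervals cover counting error within a library only. PCR reads without molecular identifiers are not independent molecules, so even that error may be understated. The share of *Lmnb1* was 20.5% and 22.1% in Ctrl and 15.7% and 14.3% in miR-128OE hearts (intervals from 19.1 to 24.0 and from 13.3 to 16.9). The share of *Lmnb2* was 10.9% and 14.8% in Ctrl and 7.45% and 7.07% in miR-128OE hearts (intervals from 9.84 to 16.5 and from 6.35 to 8.34). Because these shares are parts of the same total, a higher share of *Lmna* lowers the others, and *Lmnb1* and *Lmnb2* themselves were not called.

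**Figure D3:**
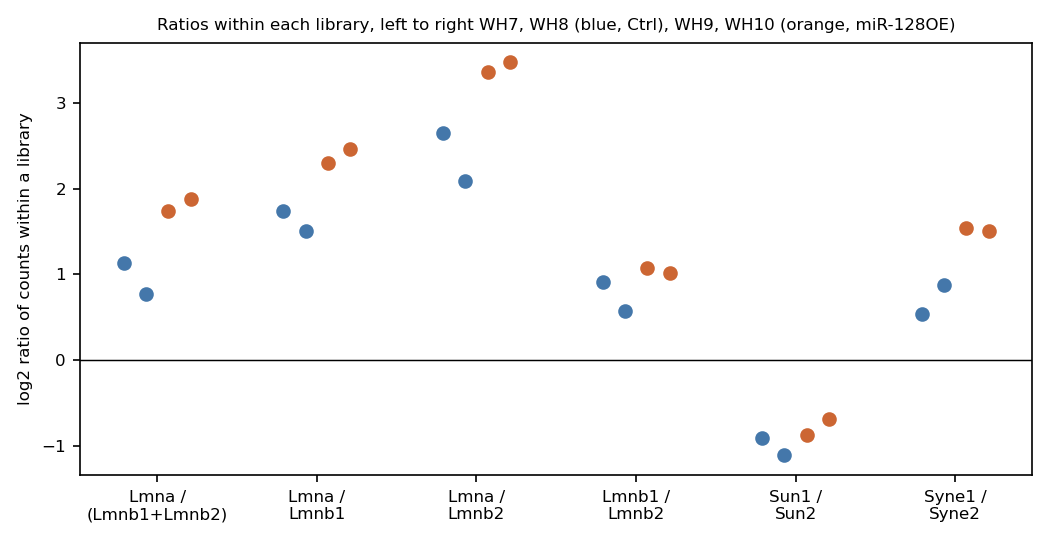
Log2 ratios of read counts between pairs of members within each library (vertical axis), with WH7 and WH8 (Ctrl) in blue and WH9 and WH10 (miR-128OE) in orange. *Lmna* over the B-type lamins lies at 1.13 and 0.77 in Ctrl and 1.73 and 1.88 in miR-128OE hearts. For all 6 ratios both orange points are above both blue points, but several ratios share genes and the gene placed on top sets the direction. Among single genes tested, the libraries also did not overlap for 33.7% (higher) and 34.4% (lower).

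*Lbr* and *Tmpo* encode proteins that bind lamins and chromatin at the inner membrane. *Lbr*, the lamin B receptor, is also a sterol reductase and binds HP1 (chromosome 1, 181815335 to 181843046). It had 655 and 816 normalized counts in Ctrl and 571 and 634 in miR-128OE hearts, which did not overlap. WH10 was only a little below WH7. The log2 fold change was −0.28 (SE 0.12, 95% interval −0.54 to −0.01, adjusted p = 0.100), and it was −0.43 without WH7 (adjusted p = 0.00465) and −0.11 without WH8 (adjusted p = 0.424), so its size too rests on the Ctrl library kept. The exons of *Lbr* share 9.24% of their bases with *Dnah14* on the opposite strand, and the handling of strand by the authors' counting is not given in the sources used here, so its value is less certain.

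*Tmpo* encodes the LAP2 proteins, of which the membrane forms bind B-type lamins and the nucleoplasmic form LAP2α binds A-type lamins and the retinoblastoma protein (chromosome 10, 91147571 to 91181315). It had 2255 and 2489 normalized counts in Ctrl and 1751 and 1767 in miR-128OE hearts. Both miR-128OE libraries were nearly equal and below both Ctrl libraries. The means were 2372 ± 165 and 1759 ± 11.1 (SD, n = 2 each), and the log2 fold change was −0.43 (SE 0.08, 95% interval −0.61 to −0.25, adjusted p = 0.00419 from edgeR). The estimate was much the same without WH9 (−0.41) or WH10 (−0.42), but the call was then lost (adjusted p = 0.0727 and 0.0549). Its mRNA forms are pooled in the gene count.

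**Figure D4:**
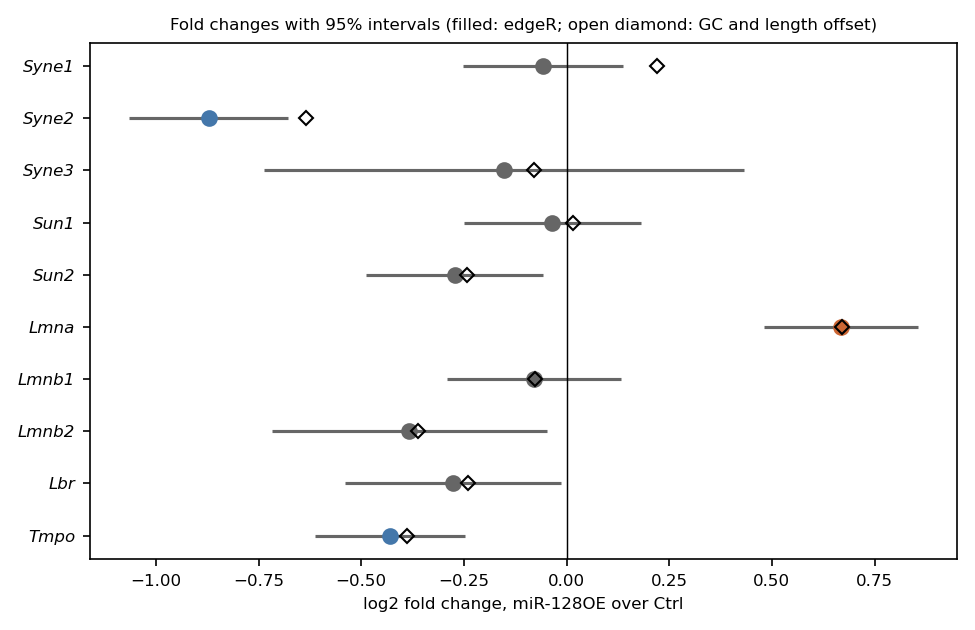
Log2 fold change of miR-128OE over Ctrl (horizontal axis) for the 10 genes, with points and 95% intervals from edgeR's quasi-likelihood fit (orange called higher, blue called lower, grey not called) and open diamonds for the fit with a GC and length offset. *Lmna* is at 0.67, *Syne2* at −0.87 and *Tmpo* at −0.43, and the diamond of *Syne1* lies at 0.22 on the other side of 0 from its point at −0.06.

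Between genes, levels were compared as normalized counts per kilobase of annotated exon. In Ctrl hearts *Lmna* was the most abundant at 310 ± 21.3 per kilobase (SD, n = 2 here and for the values that follow), and its libraries were above those of every other member. *Tmpo* at 216 ± 15.03, *Sun2* at 209 ± 24.1 and *Lmnb1* at 198 ± 9.06 followed, and neighbours among these 3 overlapped in their libraries. *Lbr* followed at 154 ± 23.9, then *Lmnb2* at 82.5 ± 17.1 and *Sun1* at 73.5 ± 1.29, which also overlapped. *Syne1* at 51.8 ± 4.86 and *Syne2* at 48.1 ± 3.21 overlapped too, and *Syne3* was last at 9.79 ± 0.148. In miR-128OE hearts *Lmna* stood at 493 ± 16.8 per kilobase, *Lmnb1* at 187 ± 8.71, *Sun2* at 172 ± 4.27 and *Tmpo* at 160 ± 1.01. *Syne2* was then at 26.3 ± 0.463 per kilobase, below *Syne1* at 49.7 ± 0.0589 in both libraries. The order depends on the length used. With the longest annotated transcript in place of all exons, *Tmpo* was above *Lmna* in Ctrl hearts (629 against 574 normalized counts per kilobase) and below it in miR-128OE hearts (466 against 912).

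Of 14 other inner membrane and lamina-binding genes, all tested, 2 were higher, 2 were lower and 10 were not called, with a median log2 fold change of 0.07. These shares, and those of the lists that follow, are read against the 16.5% higher and 15% lower of all genes tested and its median of −0.01, and they are near that background here. *Tmem38a*, which encodes the TRIC-A cation channel of the sarcoplasmic reticulum and nuclear membrane of muscle, rose from 1426 and 1172 normalized counts to 3025 and 2745 (log2 fold change 1.15, SE 0.10, adjusted p = 0.000119). *Tor1b*, a torsin ATPase of the nuclear envelope, fell from 747 and 749 to 519 and 516 (−0.53, SE 0.09, adjusted p = 0.00193). *Tor1aip1*, which encodes LAP1, a lamin-binding activator of torsins, fell from 904 and 955 to 703 and 717 (−0.39, SE 0.08, adjusted p = 0.00757). The *Tor1aip1* call was lost without WH9 (adjusted p = 0.110) or WH10 (adjusted p = 0.0782). The remaining called gene, *Emd*, named after its values were seen, encodes emerin and is X-linked (0.38, adjusted p = 0.0154).

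A list of 7 genes covered lamin processing. Their products attach lipids to protein tails such as that of prelamin A, methylate or cleave such tails, or bind them. Of the 7, 1 was higher, 0 were lower and 6 were not called, with a median log2 fold change of 0.09. *Narf*, whose product binds farnesylated prelamin A, rose from 574 and 592 normalized counts to 693 and 738 (0.30, adjusted p = 0.0309). Its call was lost in 6 of 14 alternative fits, with adjusted p-values up to 0.209. *Zmpste24*, the protease that matures prelamin A, was at 345 and 348 in Ctrl and 408 and 386 in miR-128OE hearts (0.20, adjusted p = 0.185). *Icmt*, the methyltransferase of the farnesylated tail, was at 628 and 642 in Ctrl and 767 and 664 in miR-128OE hearts (0.17, adjusted p = 0.213).

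Of 7 further genes for nesprin-like and SUN proteins, 5 were tested, with 1 higher, 1 lower and a median log2 fold change of −0.28. *Sun3*, known from the germ line, had 28 and 18 raw counts in Ctrl and 124 and 152 in miR-128OE hearts. Its log2 fold change was 2.29 (SE 0.23, adjusted p = 0.000205 from edgeR), and it kept its call in 14 of 14 alternative fits. The means were 25.5 ± 0.117 and 125 ± 3.59 normalized counts (SD, n = 2 each), and the groups did not overlap. With raw Ctrl counts of 28 and 18, the small Ctrl SD is no measure of precision. *Clmn*, an actin-binding membrane protein, fell from 65.8 and 56.5 normalized counts to 35.6 and 19.3 (−1.18, adjusted p = 0.0242), a call lost without WH7 (adjusted p = 0.0663) or WH10 (adjusted p = 0.196) and with DESeq2 (adjusted p = 0.0529). *Spag4* was at 9 and 9 raw counts in Ctrl and 20 and 21 in miR-128OE hearts (0.88, adjusted p = 0.159), and *Sun5* had 0 counts in every library, under the detection floor of 3 counts.

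The cytoplasmic partners of nesprins are motors, centrosomal proteins and cytoskeletal linkers. Of 15 tested, 3 were higher, 3 were lower and 9 were not called, with a median log2 fold change of −0.11, again near the shares over all genes tested. *Des*, for the muscle intermediate filament desmin, rose from 6218 and 6395 normalized counts to 10716 and 10541 (0.75, adjusted p = 0.000287). *Akap6*, for the anchoring protein mAKAP that nesprin-1α holds at the nuclear envelope of myocytes, rose from 842 and 881 to 1253 and 1165 (0.49, adjusted p = 0.00249). *Akap9*, for a microtubule-organizing protein of the centrosome and Golgi, fell from 2493 and 2424 to 1644 and 1657 (−0.58, adjusted p = 0.000677). These 3 genes kept their calls in 14 of 14 alternative fits. With the GC and length offset *Des* was at 0.76, *Akap6* at 0.67 and *Akap9* at −0.41. The others called were *Klc2*, a kinesin light chain (0.38), *Pcnt*, the centrosomal scaffold pericentrin (−0.47), and *Macf1*, an actin and microtubule crosslinker (−0.53), which are named here after their values were seen. The longest *Macf1* transcript, at 23495 nt, belongs to the class over 10000 nt that was lower in miR-128OE libraries. The part of length in its value was not tested. *Plec*, for the nesprin-3 partner plectin and also named after its values were seen, was at 4788 and 5334 in Ctrl and 4894 and 5220 in miR-128OE hearts (−0.0006, adjusted p = 0.996).

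**Figure D5:**
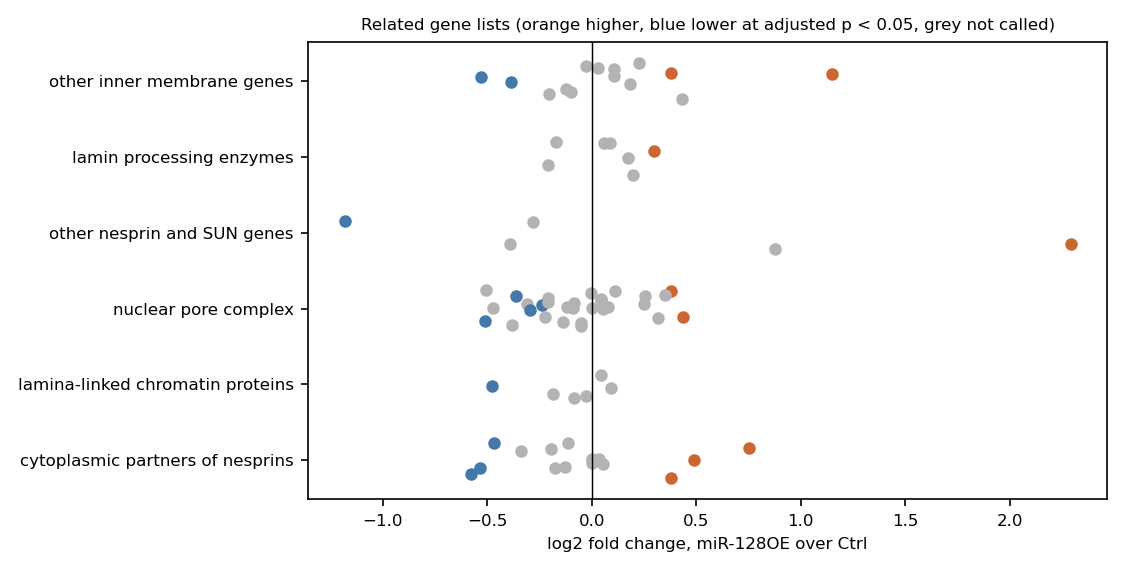
Log2 fold change of miR-128OE over Ctrl (horizontal axis) for each tested gene of 6 related lists (rows, with points spread vertically for sight only), orange where called higher, blue where called lower and grey where not called. Each list holds genes on both sides of 0, from −1.18 (*Clmn*) to 2.29 (*Sun3*).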

How the data were processed

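The authors aligned reads to mm10 with TopHat2, used Bioconductor packages to count reads per known gene, and deposited the raw counts of 4 heart libraries at P7. Their gene models, strand setting and treatment of multi-mapped reads are not given in the sources used here. Identifiers are Entrez Gene numbers, of which 24381 of 24454 were matched to a symbol in the RefSeq table of GRCm38.p6.

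The counts were fitted with edgeR 4.0.16 in R 4.3.3 (filterByExpr defaults, TMM factors, quasi-likelihood test, 7.44 prior degrees of freedom, Benjamini-Hochberg adjustment), and the code was tested on simulated data. For display, counts were divided by the effective (TMM-adjusted) library size and multiplied by its mean over libraries, giving normalized counts. Replicates differed by more than sampling noise (chi-square per degree of freedom 11.7 between WH7 and WH8, 5.55 between WH9 and WH10).

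The members and lists were chosen with earlier results of these data known. Named genes are the 10 members and the 3 genes with the smallest p-value in each related list. The alternatives tried were DESeq2 1.42.0, the exact and likelihood ratio tests of edgeR, other scalings and filters, autosomal genes, and each library left out. A loess offset for GC content and transcript length and a 1.5-fold minimum were added after the data were seen. Exons and 3′UTRs are from GENCODE M21, and Python 3.11.15 with matplotlib 3.10.9 drew the figures.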

Additional observations from a re-analysis of the deposited data

How the results depend on the processing

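*Lmna* (0.57 to 0.74) and *Syne2* (−0.97 to −0.63) kept their direction and their call in all 14 alternative fits. The count of lower members was 5 with total-count scaling or with no filter on low counts, 1 with a 1.5-fold minimum, and from 1 to 5 when each library was left out (5 without WH7, with *Sun2*, *Lmnb2* and *Lbr* added, and 1 without WH9 or WH10, with *Tmpo* lost). Upper-quartile factors added *Sun2* (−0.32, adjusted p = 0.0295). *Syne1* turned to 0.22 and *Sun1* to 0.015 with the GC and length offset, and leaving out each library moved *Syne1* between −0.15 and 0.044, *Syne3* between −0.30 and 0.019 and *Sun1* between −0.091 and 0.044. Over all genes, lower calls numbered 2143, 1410 with DESeq2 and 1187 with the 1.5-fold minimum, and from 667 (without WH9) to 2384 (without WH7) with a library left out. Higher calls numbered 2347, 935 with the 1.5-fold minimum, and from 897 (without WH9) to 2654 (without WH7) with a library left out, and without WH10 there were 1265 higher and 1020 lower. With total-count scaling the median over all genes went from −0.01 to −0.11 (log2), the share of higher among called genes went from 52.3% to 35.3%, and its member values are relative to that shift. The labels give no replicate numbers shared between groups, so no pairing was fitted. With 2 libraries a group, the condition coincides with sex, and *Syne3*, *Sun3*, *Clmn* and *Spag4* are limited by depth.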

Other observations

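Nuclear pore genes encode the channels that sit in openings of the lamina. Of 30 tested, 2 were higher, 4 were lower and 24 were not called. Over all genes tested, the shares were 16.5% higher and 15% lower. The median log2 fold change was −0.07 for the pore genes and −0.01 for all genes tested. *Nup85*, a scaffold nucleoporin of the Y complex, fell from 575 and 507 normalized counts in Ctrl to 370 and 391 in miR-128OE hearts (−0.51, standard error 0.11, adjusted p = 0.00655 from edgeR). *Nup62*, of the central channel, rose from 411 and 400 to 551 and 546 (0.44, standard error 0.10, adjusted p = 0.00833), and *Nup50*, of the nuclear basket, rose from 290 and 305 to 399 and 373 (0.38, standard error 0.11, adjusted p = 0.0285). The other lower genes, named after their values were seen, were *Tpr* of the basket (−0.24), *Nup205* of the inner ring (−0.30) and *Aaas* (−0.36). Their adjusted p-values from edgeR were 0.0431, 0.0492 and 0.0474, just under the threshold. Without WH9 or WH10 the calls of *Nup85*, *Nup62* and *Nup50* were lost, with adjusted p-values from 0.0504 to 0.202, and that of *Nup50* was also lost with DESeq2 (adjusted p = 0.108), total-count scaling (adjusted p = 0.0805) and without WH7 (adjusted p = 0.0610).

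Of 6 genes for chromatin proteins linked to the lamina, 0 were higher, 1 was lower and 5 were not called, with a median log2 fold change of −0.06. *Cbx1*, for the heterochromatin protein HP1β, fell from 636 and 694 normalized counts to 485 and 468 (−0.48, standard error 0.09, adjusted p = 0.00512 from edgeR), and the call was lost without WH9 (adjusted p = 0.0572) or WH10 (adjusted p = 0.0680). *Cbx5*, for HP1α, was at 1989 and 2017 in Ctrl and 2207 and 2060 in miR-128OE hearts (0.09, adjusted p = 0.407). *Rb1*, for the retinoblastoma protein that LAP2α and A-type lamins bind, was at 331 and 276 in Ctrl and 273 and 263 in miR-128OE hearts (−0.19, adjusted p = 0.300).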
